A study of Arabidopsis thaliana with 12 samples.

Results

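Oligogalacturonides (OGs), chains of galacturonic acid cut from the plant's own pectin, were compared with chitin oligomers, chains of N-acetylglucosamine from fungal walls, for their effect on root transcripts of Arabidopsis thaliana Col-0. The comparison used every array labelled OGs and every array labelled chitin at 3 h, 3 of each, so 6 of the 12 arrays of the series. The remaining arrays held roots given cellobiose, the repeating unit of cellulose (3 arrays), and a control with no elicitor (3 arrays). Each array was an Affymetrix ATH1 GeneChip hybridised with total RNA from the roots of 7-day-old seedlings, which had been grown many to a disc of nylon mesh, so that 1 sample pooled many plants. All 4 groups were transferred to dishes for the treatment. The labels call the 3 samples of a group biological replicates. Neither labels nor design text give the doses of OGs and chitin, so a difference between the elicitors cannot be told apart from a difference in effective dose.

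As background, plant cells sense wall fragments at the plasma membrane. Chitin oligomers are bound by LysM-domain receptor kinases, and OGs have been linked to wall-associated kinases. Both elicitors set off calcium influx, an oxidative burst and MAP kinase activity, followed within hours by transcripts of WRKY transcription factors, wall-modifying enzymes, chitinases, peroxidases and enzymes of defence metabolites.

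Levels are the deposited log2 intensities, so a difference of 1 is a doubling, and all differences are OGs minus chitin unless the control is named. Of 13355 genes measured through a probe set with 1 gene, 425 (3.18%) were called different between OGs and chitin (limma, Benjamini-Hochberg adjusted p under 0.05 over all probe sets). After OGs, 262 of them were lower (1.96% of genes) and 163 higher (1.22% of genes). Sizes were unequal: 104 of the lower genes but 17 of the higher genes differed at least 2-fold, and 19 against 1 at least 4-fold. The median size was -0.86 among the lower genes and 0.54 among the higher genes, while the median over all genes was 0.02. Over all 22746 probe sets, gene names aside, 813 (3.57%) were called, 490 lower (2.15%) and 323 higher (1.42%). From the same fit, 2.2% of genes were called for OGs against the control and 9.35% for chitin against the control, comparisons that share the control arrays. Because whole roots were sampled, fewer cells of a type and less RNA per cell cannot be told apart.

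**Figure D1:**
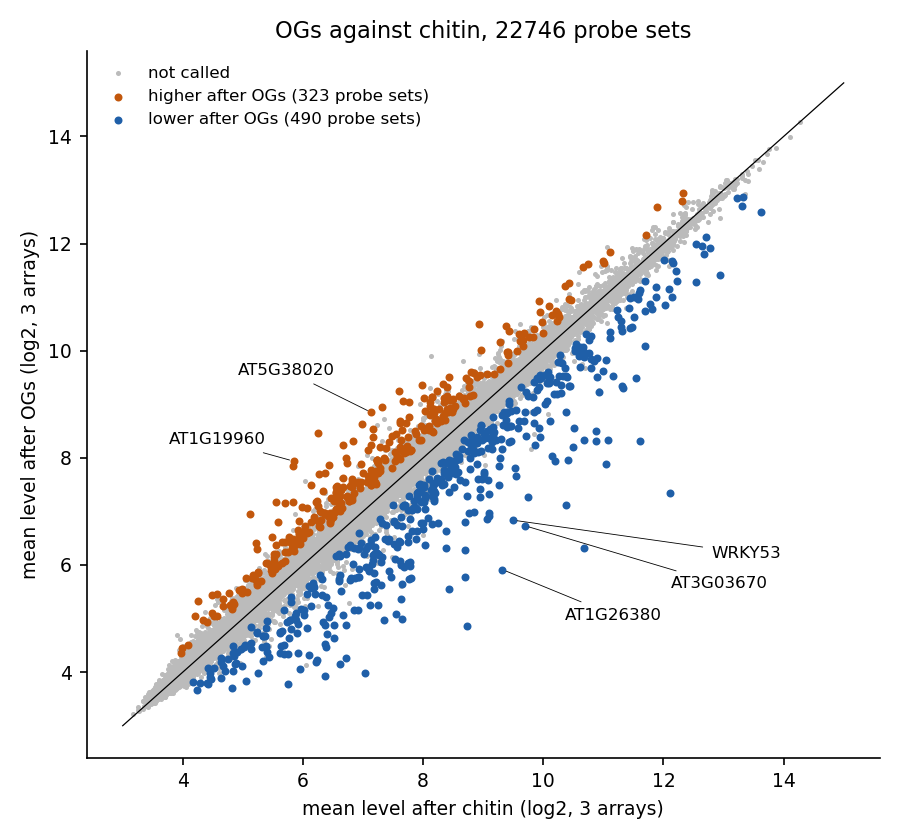
Mean level after OGs (vertical axis, log2) against mean level after chitin (horizontal axis, log2) for 22746 probe sets, 3 arrays a group, with the line of equal levels. The 490 probe sets called lower after OGs (blue) lie farther from the line than the 323 called higher (orange).

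Arrays of a group correlated across probe sets at 0.993 to 0.994 for OGs and 0.993 to 0.995 for chitin, and OGs arrays correlated with chitin arrays at 0.984 to 0.993. On the first principal component of all 12 arrays, which held 39.3% of the variance, the OGs arrays lay at -3.14 to 3.20, the chitin arrays at 23.7 to 42.7 and the control arrays at -27.8 to -24.1. An array of each elicitor stood apart. For OGs it was replicate 3, whose 3′ minus 5′ difference of the GAPDH control probe sets, a sign of RNA integrity, was 0.844, against 0.134 and 0.220 on the other OGs arrays and 0.243 to 0.442 on the chitin arrays. For chitin it was replicate 2, at 42.7 on the first component against 26.6 and 23.7. With both left out, an alternative chosen after seeing the data, 262 probe sets were called (231 lower and 31 higher), of which 257 were among the 813. Counts or calls without them are given below beside many of the gene groups.

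The largest differences were in genes lower after OGs. AT1G26380, also known as FOX1, encodes a flavin-dependent oxidase that helps make indole cyanogenic defence compounds. Its level was 6.35, 5.87 and 5.53 on the OGs arrays, against 9.12, 10.23 and 8.61 on the chitin arrays. The groups did not overlap, and the difference was -3.41 ± 0.29 (adjusted p = 9.25e-05, limma, with ± on differences standing for the SE throughout), a level 10.6-fold lower after OGs. The control arrays lay at 3.91, 3.93 and 4.15, so OGs themselves raised it above the control by 1.92 (adjusted p = 0.00757) and chitin by 5.32 (adjusted p = 1.25e-06). These differences, like all others from the control given here, share the control arrays.

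AT3G03670, a class III peroxidase, showed the next largest difference. It stood at 6.79, 6.97 and 6.44 after OGs, against 9.34, 10.54 and 9.19 after chitin (-2.96 ± 0.38, adjusted p = 0.00129). For AT3G03670 OGs minus control was 1.18 (adjusted p = 0.137, limma) and chitin minus control 4.14 (adjusted p = 4.75e-05). AT1G49000 had 5.73, 5.66 and 5.91 after OGs, against 8.86, 8.67 and 8.54 after chitin (-2.92 ± 0.13, adjusted p = 2.14e-06). Its control arrays, at 5.34 to 5.73, overlapped the OGs arrays, and OGs minus control was 0.25 (adjusted p = 0.376). AT2G39400, an alpha/beta hydrolase, had 5.89, 5.37 and 5.37 after OGs, against 8.30, 8.83 and 8.16 after chitin (-2.88 ± 0.17, adjusted p = 1.47e-05). AT2G15220, of the plant basic secretory protein family, had 8.61, 8.41 and 7.99 after OGs, against 11.09, 11.28 and 10.89 after chitin (-2.75 ± 0.14, adjusted p = 3.66e-06). Its probe set is of the kind that may bind more than 1 transcript. In each of these genes the lowest chitin array lay more than 2 log2 units above the highest OGs array.

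Signalling and wall genes stood beside them. AT4G28460 encodes the precursor of PIP1, a secreted peptide that amplifies immune signalling. It had 5.29, 5.44 and 5.36 after OGs, against 7.64, 8.19 and 7.06 after chitin (-2.26 ± 0.19, adjusted p = 8.79e-05). The OGs arrays were close to the control, with OGs minus control at 0.37 (adjusted p = 0.378) and chitin minus control at 2.63 (adjusted p = 9.09e-06). The neighbours AT1G26240 and AT1G26250 encode proline-rich extensin-like wall proteins. AT1G26250 had 8.20, 7.98 and 8.45 after OGs, against 10.63, 10.64 and 10.19 after chitin (-2.28 ± 0.16, adjusted p = 2.91e-05). AT1G26240 had 3.96, 3.91 and 3.94 after OGs, near the dimmest signals of the arrays, against 6.11, 7.08 and 5.93 after chitin. The adjusted p was 0.000113 on the values as deposited. With levels under log2 5 treated as background and raised to 5, the size was at least 2.59-fold lower after OGs, and the gene was then not called (adjusted p = 0.0630). AT5G28630, a glycine-rich protein, had 8.36, 7.90 and 7.83 after OGs, against 10.11, 10.40 and 9.91 after chitin (-2.11 ± 0.15, adjusted p = 3.00e-05). AT4G22640 had 7.64, 7.40 and 6.79 after OGs, against 9.76, 9.83 and 9.66 after chitin (-2.48 ± 0.16, adjusted p = 1.70e-05).

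AT3G16530, a lectin-like protein, was the least even of the set. It had 8.31, 6.24 and 6.35 after OGs, against 9.32, 9.20 and 8.77 after chitin (-2.13 ± 0.33, adjusted p = 0.00488). A single OGs array, replicate 1, was about 2 log2 units above the others but still below every chitin array. Across the 15 genes with the largest lower levels, OGs replicate 1 was the highest OGs array for 11, chitin replicate 2 the highest chitin array for 12 and chitin replicate 3 the lowest for 13. The OGs and chitin arrays did not overlap in any of the 15, which held for 20.6% of all genes. All 15 remained called with each of the 6 arrays left out in turn. With OGs replicate 3 and chitin replicate 2 both left out, AT3G16530 was no longer called.

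**Figure D2:**
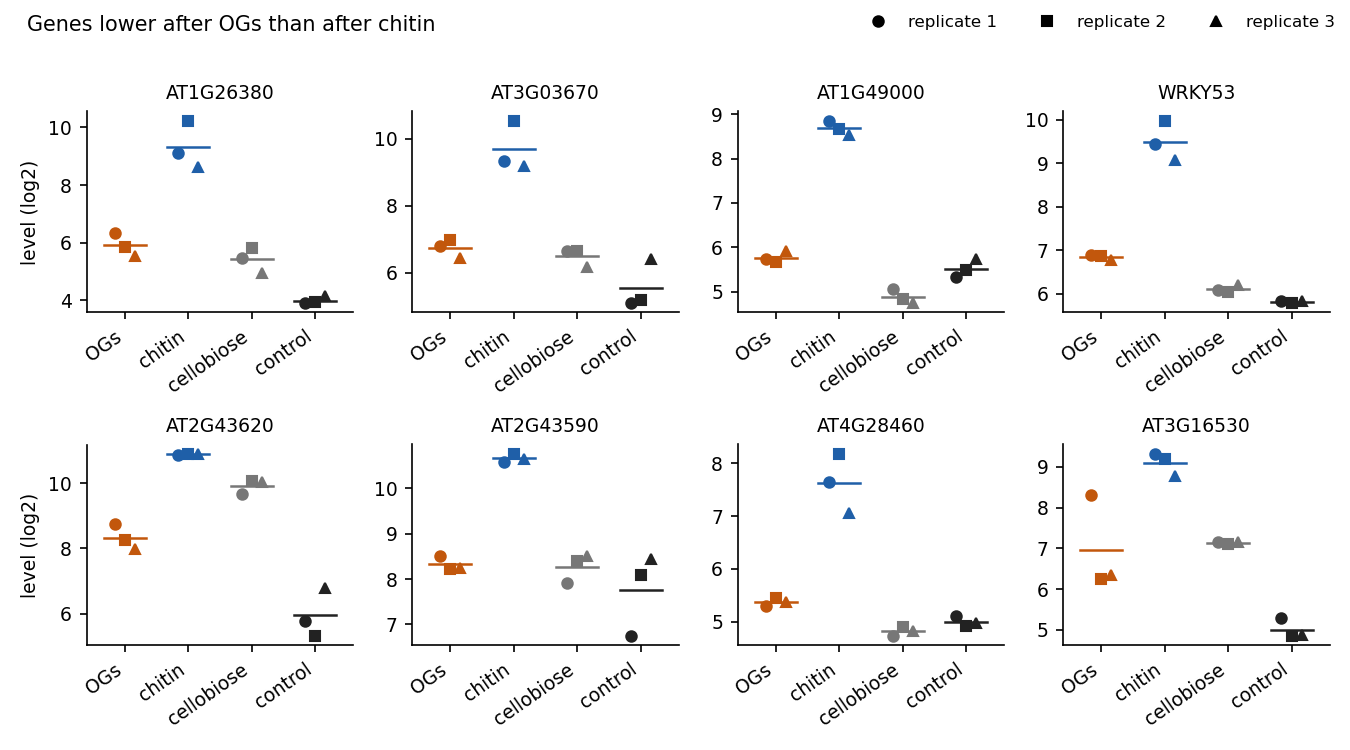
Level (log2, vertical axis) on each array for 8 genes lower after OGs, by group, with replicate number as symbol and group mean as bar. The OGs arrays lie below every chitin array in all 8 panels. For AT1G49000, AT2G43590 and AT4G28460 they lie near or among the control arrays. The vertical axes do not start at 0 and differ between panels.

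Known early genes of the elicitor response were mostly lower after OGs. Of the 28 genes in that list, 10 were measured. Of these, 8 (80%) were lower after OGs, against 1.96% of all genes, and 0 higher. The median difference was -0.89 against 0.02 over all genes. WRKY53, a transcription factor of defence and leaf senescence, had 6.89, 6.86 and 6.77 after OGs, against 9.43, 9.98 and 9.08 after chitin (-2.66 ± 0.16, adjusted p = 1.57e-05). Here OGs raised the level above the control (1.03, adjusted p = 0.0100) and chitin far more (3.69, adjusted p = 3.60e-07). AT1G51890, a leucine-rich repeat receptor-like kinase, had 7.54, 7.44 and 7.26 after OGs, against 8.97, 9.11 and 8.74 after chitin (-1.53 ± 0.12, adjusted p = 6.71e-05). STZ, a zinc-finger repressor of stress responses, had 7.82, 7.68 and 7.32 after OGs, against 8.47, 9.37 and 8.92 after chitin (-1.31 ± 0.19, adjusted p = 0.00288).

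PUB22 and PUB23 encode U-box ubiquitin ligases that damp immune signalling. PUB22 had 8.47, 8.83 and 8.77 after OGs, against 9.63, 9.80 and 9.61 after chitin (-0.99 ± 0.09, adjusted p = 0.000128). PUB23 had 9.81, 10.06 and 9.78 after OGs, against 10.68, 11.01 and 10.34 after chitin (-0.79 ± 0.12, adjusted p = 0.00433). OGs minus control was 0.16 for PUB22 (adjusted p = 0.421), and chitin minus control was 1.15 (adjusted p = 1.38e-05). PUB24, the close relative of both, did not pass (-0.77 ± 0.22, adjusted p = 0.101), nor did WRKY22 (0.27 ± 0.17, adjusted p = 0.499). The other members called were WRKY6, CCR2 and AT1G07160, the last below log2 5 in both groups. WRKY6 (-0.62 ± 0.11, adjusted p = 0.00915) lost its call without OGs replicate 1 (adjusted p = 0.0544), chitin replicate 1 (0.0504) or chitin replicate 2 (0.0563). Without both arrays that stand apart 4 members were called, against 6 to 8 when any 1 array was left out. The calls lost without both were those of PUB23 (adjusted p = 0.0845, limma), AT1G07160 (0.108), WRKY6 (0.167) and CCR2 (0.211). With values under log2 5 raised to 5, STZ (adjusted p = 0.0594), PUB23 (0.0523), WRKY6 (0.0644), CCR2 (0.169) and AT1G07160 (0.705) were not called. PUB23 and AT1G07160, like other genes named later as outside the rule, were chosen after their values were seen. Among 6 WRKY factors found by symbol, WRKY53 and WRKY6 were lower (33.3%, against 1.96% of all genes) and the median was -0.11.

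The perception machinery itself was thinly covered. Of 26 receptors and adjoining kinases listed, 4 had a probe set with 1 gene, and 0 were called by limma, 2 of them at an unadjusted p under 0.05. BIK1, a cytoplasmic kinase downstream of several immune receptors, differed by -0.19 (95% interval -0.39 to 0.01, adjusted p = 0.329). EFR, the receptor of a bacterial elongation factor peptide, differed by -0.16 (95% interval -0.39 to 0.08, adjusted p = 0.545). AT1G56145 differed by -0.22 (adjusted p = 0.282) and AT5G18610 by 0.23 (adjusted p = 0.266). The 95% intervals of all 4 lay between -0.43 and 0.43. For EFR the means were below log2 5 in both groups, close to background (4.19 after OGs and 4.345 after chitin), so its interval says little. None of the 21 listed MAP kinases, calcium-dependent kinases and NADPH oxidases had such a probe set.

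The chitinase genes, whose enzymes cut fungal wall chitin, were lower after OGs wherever they were called. Of 15 measured chitinases of 24 listed, 6 (40%) were lower after OGs, against 1.96% of all genes, and 0 higher, with a median of -0.49. The same count of 6 was found with any 1 array left out and with both arrays that stand apart left out. AT2G43620 had 8.74, 8.24 and 7.97 after OGs, against 10.86, 10.88 and 10.90 after chitin (-2.56 ± 0.30, adjusted p = 0.000751). The chitin arrays were nearly identical, and the OGs arrays lay between them and the control at 5.31 to 6.79. AT2G43590 had 8.51, 8.23 and 8.24 after OGs, against 10.59, 10.77 and 10.66 after chitin (-2.35 ± 0.29, adjusted p = 0.00103). Its OGs arrays overlapped the control arrays, with OGs minus control at 0.57 (adjusted p = 0.357, limma) and chitin minus control at 2.925 (adjusted p = 8.70e-05). CHI had 9.29, 9.56 and 9.18 after OGs, against 11.31, 11.34 and 11.28 after chitin (-1.97 ± 0.15, adjusted p = 4.28e-05). OGs still raised CHI above the control by 1.86 (adjusted p = 0.000291), and chitin by 3.83 (adjusted p = 2.50e-07).

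AT4G01700 had 11.63, 11.30 and 11.29 after OGs, against 12.93, 13.07 and 12.83 after chitin (-1.54 ± 0.10, adjusted p = 1.70e-05). AT1G02360 had 11.37, 11.39 and 11.07 after OGs, against 12.54, 12.67 and 12.41 after chitin (-1.26 ± 0.10, adjusted p = 7.01e-05). For AT1G02360 OGs minus control was 0.25 (adjusted p = 0.248) and chitin minus control 1.51 (adjusted p = 5.79e-06). AT2G43580 had 4.43, 4.32 and 4.38 after OGs, against 5.17, 5.56 and 5.46 after chitin (adjusted p = 0.000151 on the values as deposited). With values under log2 5 raised to 5 it was at least 1.32-fold lower and not called (adjusted p = 0.0902). CHI, AT2G43580, AT2G43590 and AT2G43620 belong to a run of neighbouring locus codes, and 2 further chitinases of that run were not called, AT2G43610 (-0.50, adjusted p = 0.0927) and AT2G43600 (-0.05, adjusted p = 0.935).

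Berberine bridge enzyme-like oxidases are flavoenzymes, several of which oxidise wall sugars or defence metabolites. Of 22 measured of 27 listed, 5 (22.7%) were lower after OGs, against 1.96% of all genes, and 0 higher, with a median of -0.07. Of the 22, 10 had means below log2 5 in both groups, close to background. Besides AT1G26380, the strongly different members were its neighbours AT1G26420 and AT1G26410. AT1G26420 had 6.88, 6.17 and 5.87 after OGs, against 8.30, 8.57 and 8.27 after chitin (-2.07 ± 0.19, adjusted p = 0.000152). AT1G26410 had 4.45, 4.41 and 4.56 after OGs, against 6.19, 7.07 and 5.89 after chitin (adjusted p = 0.000426 on the values as deposited). With values under log2 5 raised to 5 it was at least 2.60-fold lower and not called (adjusted p = 0.0620). The locus codes between them, AT1G26390 and AT1G26400, stayed near log2 4 on both sides (differences of -0.07 and -0.08). Without both arrays that stand apart, 3 were called.

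The oxidases that act on OGs themselves belong to this family. AT4G20830, known as OGOX1, oxidises OGs and thereby lowers their eliciting activity. It had 10.64, 10.17 and 10.30 after OGs, against 11.36, 11.44 and 11.13 after chitin, so it was lower after the elicitor that its enzyme oxidises (-0.94 ± 0.13, adjusted p = 0.00269). Relative to the control, OGs raised it by 1.05 (adjusted p = 0.00318) and chitin by 1.99 (adjusted p = 5.82e-06). With both arrays that stand apart left out it was no longer called. AT4G20860, the cellodextrin oxidase CELLOX, had 10.58, 10.60 and 10.72 after OGs, against 11.26, 11.20 and 11.29 after chitin (-0.62 ± 0.12, adjusted p = 0.0141). That call was lost without OGs replicate 1 (adjusted p = 0.0727), OGs replicate 2 (0.0600), chitin replicate 1 (0.0511) or chitin replicate 2 (0.0620). AT1G11770, another OG oxidase, was near background in every group, at 3.81 ± 0.10 after OGs and 3.76 ± 0.03 after chitin (SD, n = 3 each), and did not pass (adjusted p = 0.849).

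Class III peroxidases, secreted enzymes that make or use hydrogen peroxide in the wall, were divided. Of 55 measured of 73 listed, 10 (18.2%) were lower and 2 (3.64%) higher after OGs, with a median of -0.09. Over all genes 1.96% were lower and 1.22% higher. Means were below log2 5 in both groups for 13 of the 55. AT5G39580 had 8.58, 8.74 and 8.37 after OGs, against 10.07, 10.86 and 10.59 after chitin (-1.94 ± 0.20, adjusted p = 0.000306). AT4G36430, named outside the rule, had 9.54, 10.06 and 8.90 after OGs, against 11.37, 11.79 and 11.46 after chitin (-2.04 ± 0.33, adjusted p = 0.00599). It was not called with both arrays that stand apart left out (adjusted p = 0.137) or with values under log2 5 raised to 5 (adjusted p = 0.0881). All arrays of AT4G36430 lay above log2 5, and raising the values left its difference at -2.04. AT5G66390, which takes part in lignification, had 9.70, 10 and 9.78 after OGs, against 10.88, 11.26 and 11.01 after chitin (-1.23 ± 0.07, adjusted p = 1.57e-05). For AT5G66390 the OGs arrays overlapped the control arrays, with OGs minus control at 0.04 (adjusted p = 0.863).

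AT1G68850 lay on the other side of the control. It had 6.24, 7.23 and 6.96 after OGs, against 8.80, 8.62 and 8.68 after chitin (-1.89 ± 0.19, adjusted p = 0.000261). OGs minus control was -0.89 (adjusted p = 0.0349) and chitin minus control 1.00 (adjusted p = 0.00596). The 2 peroxidases higher after OGs, also outside the rule, were AT1G34510 (8.71, 8.34 and 7.98 after OGs, against 7.71, 7.66 and 7.52 after chitin, adjusted p = 0.00829) and AT5G15180 (6.99, 7.11 and 7.06 after OGs, against 5.78, 5.68 and 6.73 after chitin, adjusted p = 0.0460). AT5G15180 kept its call only without chitin replicate 3, and with any other array left out its adjusted p was 0.103 to 0.221. Without both arrays that stand apart, 5 peroxidases were lower and 0 higher.

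**Figure D3:**
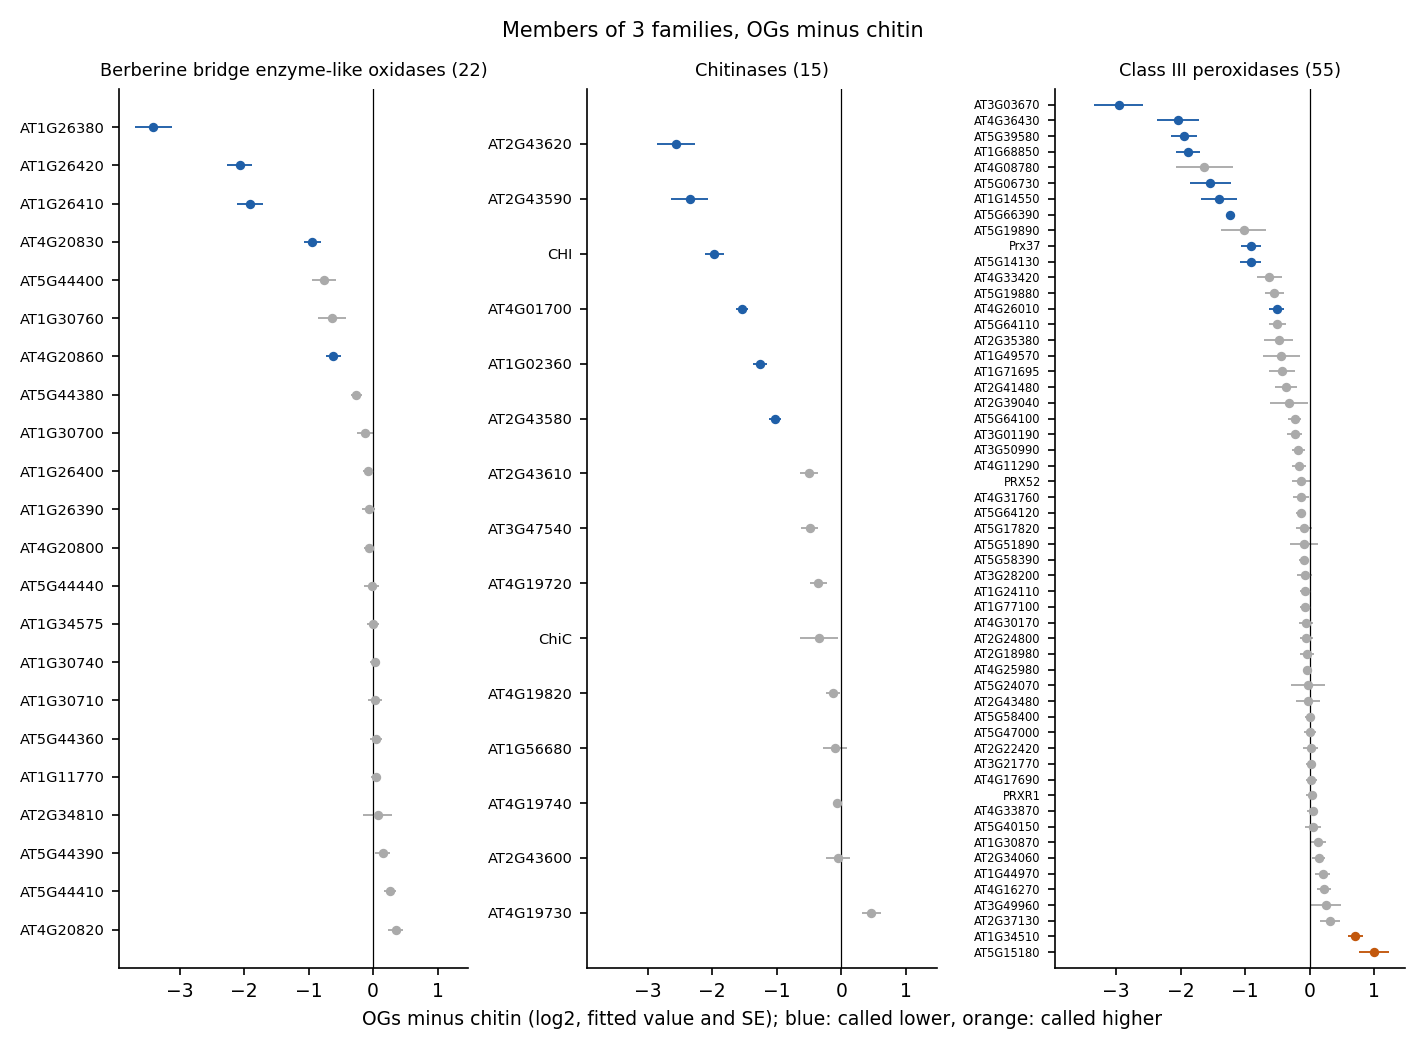
Fitted difference, OGs minus chitin (log2, horizontal axis, with SE), for each measured berberine bridge enzyme-like oxidase (22), chitinase (15) and class III peroxidase (55). Members called lower are blue (5, 6 and 10), members called higher orange (0, 0 and 2) and the rest grey.

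In the lists of tryptophan and indole defence and of lignin, the members called were lower after OGs. AT2G04400, the indole-3-glycerol phosphate synthase of tryptophan synthesis, had 9.78, 9.72 and 9.57 after OGs, against 10.56, 10.93 and 10.34 after chitin (-0.92 ± 0.12, adjusted p = 0.00154). With AT1G26380 it made 2 lower of 4 measured in the tryptophan and indole defence list (50%, against 1.96% of all genes). LAC16, a laccase, had 4.95, 4.79 and 5.07 after OGs, against 6.65, 5.99 and 6.34 after chitin, at least 2.47-fold lower (adjusted p = 0.00107 on the values as deposited). CCR2, a cinnamoyl-CoA reductase of monolignol synthesis, differed by -1.04 ± 0.22 (adjusted p = 0.0276). The call of CCR2 held only with all arrays or without chitin replicate 3, and was lost with any other array left out (adjusted p = 0.0633 to 0.117). HCT, an earlier enzyme of the monolignol route, did not pass (-0.13, adjusted p = 0.482).

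Suberin is the waxy polymer of the root endodermis and periderm. Of 10 measured of 34 listed genes of suberin and the Casparian strip, 4 (40%) were lower after OGs, against 1.96% of all genes, and 0 higher. The median of the 10 was -0.45, and 4 were called also without both arrays that stand apart. AT1G74460, a GDSL-type esterase/lipase, had 8.003, 8.62 and 8.26 after OGs, against 9.31, 9.44 and 9.53 after chitin (-1.13 ± 0.12, adjusted p = 0.000296). This gene, like AT1G68850, lay on opposite sides of the control, at -0.72 for OGs (adjusted p = 0.0103) and 0.41 for chitin (adjusted p = 0.0467). AT3G50400, another GDSL-type esterase/lipase, had 5.56, 6.56 and 6.04 after OGs, against 7.09, 7.46 and 7.37 after chitin (-1.25 ± 0.13, adjusted p = 0.000342). AT5G08250, a cytochrome P450 of the CYP86B subfamily, had 4.57, 5.14 and 4.91 after OGs, against 6.86, 6.11 and 6.59 after chitin, at least 2.77-fold lower (adjusted p = 0.000730 on the values as deposited). AT1G05450, a lipid transfer protein-like gene, was called on the values as deposited (adjusted p = 0.000471). With values under log2 5 raised to 5 it was at least 1.61-fold lower and not called (adjusted p = 0.117). By group means the 4 genes lay higher after cellobiose than after either elicitor compared here, for AT1G74460 at 10.31, which was not tested.

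**Figure D4:**
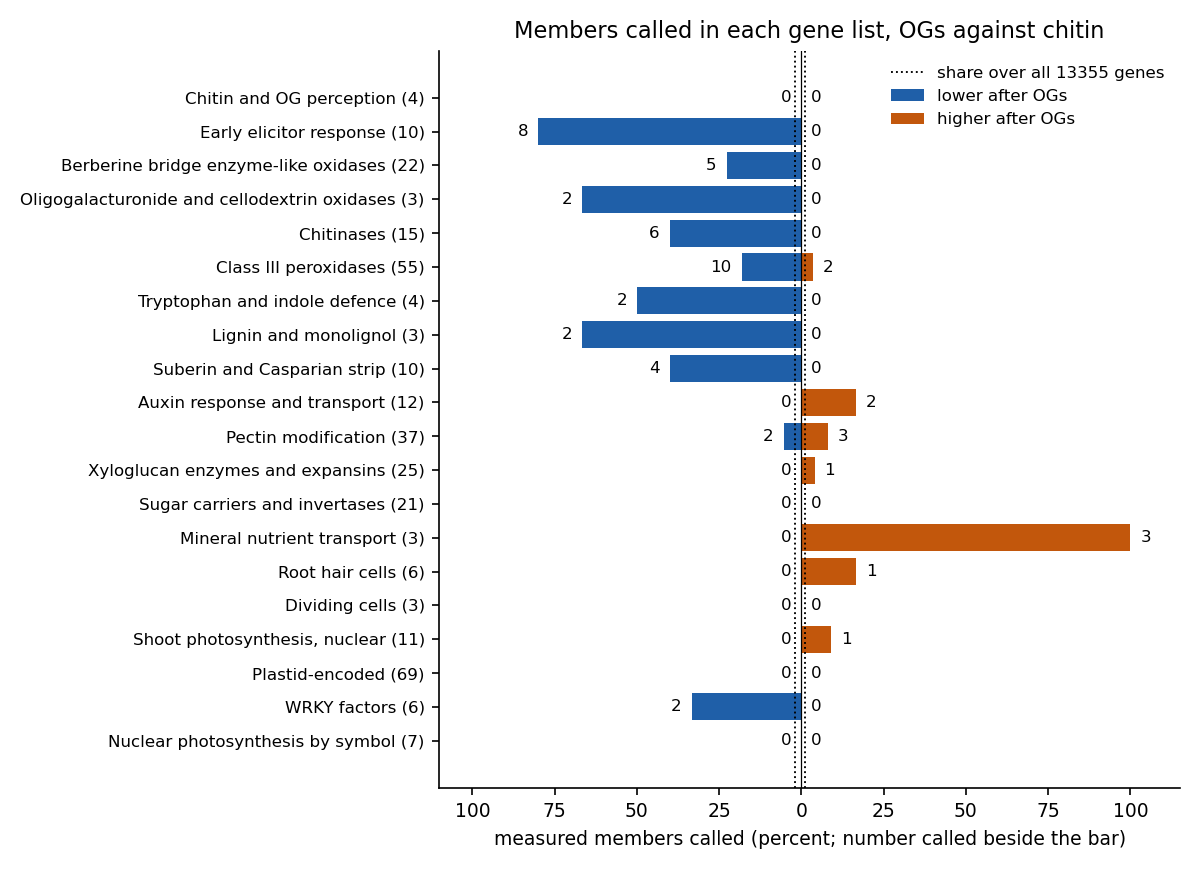
Share of measured members called lower after OGs (blue, to the left, percent) or higher (orange, to the right, percent) in each list with 3 or more measured genes (number in parentheses, number called beside the bar). The dotted lines mark the shares over all 13355 genes, 1.96% lower and 1.22% higher, and the early elicitor list has the longest blue bar (8 of 10).

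Genes higher after OGs were fewer and their differences smaller. AT1G19960 showed the largest difference. It had 7.66, 8.46 and 7.70 after OGs, against 5.87, 5.92 and 5.74 after chitin, 4.27-fold higher (2.10 ± 0.23, adjusted p = 0.000442). The control arrays, at 7.13, 6.55 and 6.98, lay between the groups, with OGs minus control at 1.06 (adjusted p = 0.0384) and chitin minus control at -1.04 (adjusted p = 0.0134). AT1G66800, a reductase-like protein, was likewise split, at 9.11, 9.13 and 8.87 after OGs, against 8.11, 7.66 and 7.52 after chitin (1.27 ± 0.11, adjusted p = 0.000102). Its OGs minus control was 0.72 (adjusted p = 0.00793) and its chitin minus control -0.56 (adjusted p = 0.00774).

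AT5G38020 encodes a methyltransferase of the SABATH family, which methylates small acids. It had 8.64, 9.23 and 8.68 after OGs, against 7.37, 7.15 and 6.90 after chitin (1.71 ± 0.17, adjusted p = 0.000283). The control arrays lay at 7.97 to 8.31, and chitin minus control was -1.05 (adjusted p = 0.00280). AT3G59710, a short-chain dehydrogenase-like protein, had 8.02, 8.43 and 8.47 after OGs, against 7.11, 6.64 and 6.76 after chitin (1.47 ± 0.15, adjusted p = 0.000289). For AT3G59710 OGs minus control was 0.95 (adjusted p = 0.00917) and chitin minus control -0.51 (adjusted p = 0.0514). BGLU45, a beta-glucosidase of monolignol glucosides, had 7.43, 7.78 and 7.91 after OGs, against 6.33, 5.84 and 6.65 after chitin (1.43 ± 0.22, adjusted p = 0.00395). For BGLU45 OGs minus control was 0.27 (adjusted p = 0.615) and chitin minus control -1.17 (adjusted p = 0.00545).

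AT3G59340 had 7.54, 8.08 and 7.54 after OGs, against 6.38, 6.20 and 6.53 after chitin (1.35 ± 0.15, adjusted p = 0.000485). AT1G15640 had 7.27, 8.02 and 7.18 after OGs, against 6.07, 6.23 and 6.08 after chitin (1.36 ± 0.16, adjusted p = 0.000595). In both genes the control arrays overlapped or nearly touched the OGs arrays and lay above every chitin array. AT1G33055 had 6.84, 6.66 and 6.91 after OGs, against 5.47, 5.42 and 5.87 after chitin (1.22 ± 0.20, adjusted p = 0.00671). For AT1G33055 OGs minus control was 1.28 (adjusted p = 0.00937) and chitin minus control 0.06 (adjusted p = 0.916). With both arrays that stand apart left out, AT1G33055 (adjusted p = 0.190) and BGLU45 (adjusted p = 0.143) were not called.

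Another 6 of the 15 genes with the largest higher levels lost their calls when single arrays were left out. AT2G30670, a tropinone reductase-like protein, had 7.23, 7.73 and 5.93 after OGs, against 4.77, 5.42 and 5.17 after chitin (1.84 ± 0.38, adjusted p = 0.0224). Replicate 3 was the lowest OGs array, and the difference was 2.46 without it (adjusted p = 0.000703). The call was lost without OGs replicate 1 (0.106), OGs replicate 2 (0.119), chitin replicate 1 (0.0957) or chitin replicate 2 (0.0805, all adjusted p). AT5G43450, a 2-oxoglutarate-dependent dioxygenase relative (1.44 ± 0.28, adjusted p = 0.0179), AT5G41280, a cysteine-rich secreted protein (1.42 ± 0.25, adjusted p = 0.0100), AT2G26690, AT1G64590 and AT1G76590 were likewise unsteady. Left-out arrays that ended a call were OGs replicates 1 and 3 and chitin replicates 1 and 3 for AT5G43450 (adjusted p = 0.0503 to 0.0980), and OGs replicates 1 and 2 and chitin replicate 2 for AT5G41280 (0.0529 to 0.0590). For AT1G64590 they were OGs replicates 2 and 3 (0.0661 to 0.0870), and for AT1G76590, a PLATZ transcription factor, OGs replicates 2 and 3 and chitin replicate 2 (0.0529 to 0.0777). With values under log2 5 raised to 5, 11 of the 30 genes with the largest differences lost their calls, 9 of them from the higher genes, AT1G62770 and BGLU45 among them. Every array of AT1G62770 and BGLU45 was above log2 5. Their differences stayed at 1.63 and 1.43, with adjusted p = 0.0502 and 0.0698 (limma).

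**Figure D5:**
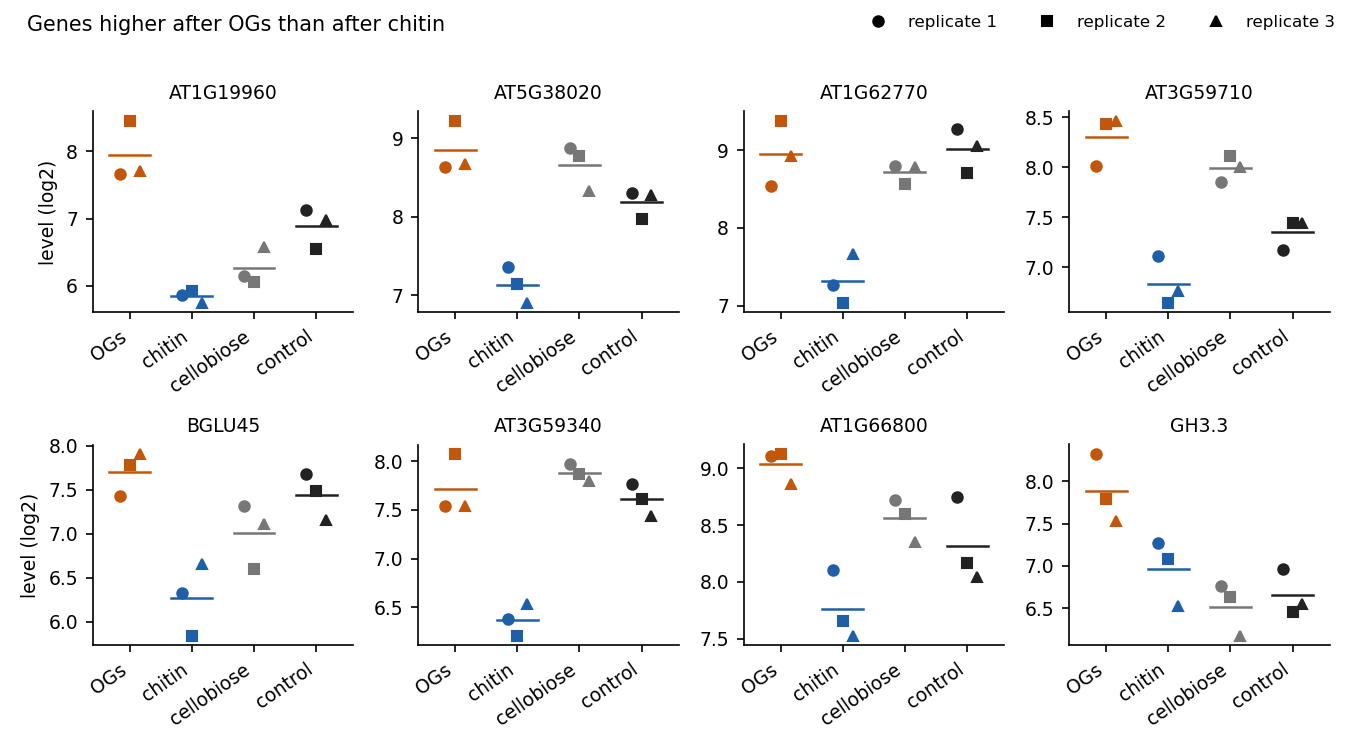
Level (log2, vertical axis) on each array for 8 genes higher after OGs, by group, with replicate number as symbol and group mean as bar. Every OGs array lies above every chitin array in all 8 panels, and in all but GH3.3 the control mean lies above the chitin mean. The vertical axes do not start at 0 and differ between panels.

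Pectin-modifying genes, which include the enzymes that shape the polymer OGs come from, moved both ways. Of 37 measured of 52 listed, 3 (8.11%) were higher and 2 (5.4%) lower after OGs, with a median of 0.03. Over all genes 1.22% were higher and 1.96% lower. Means were below log2 5 in both groups for 12 of the 37. AT1G62770, an inhibitor of pectin methylesterases, had 8.53, 9.38 and 8.93 after OGs, against 7.26, 7.03 and 7.66 after chitin (1.63 ± 0.22, adjusted p = 0.00177). OGs minus control was -0.07 (adjusted p = 0.922) and chitin minus control -1.70 (adjusted p = 0.000586). AT5G04960, a pectin methylesterase, had 9.39, 9.12 and 9.26 after OGs, against 8.24, 8.23 and 8.21 after chitin (1.03 ± 0.17, adjusted p = 0.00593). In the opposite direction, AT3G47380, annotated as another methylesterase inhibitor, had 7.37, 6.96 and 6.84 after OGs, against 7.93, 8.04 and 7.53 after chitin (-0.78 ± 0.10, adjusted p = 0.00161). AT3G47380 was not called with no replicate block (adjusted p = 0.0642), and AT5G04960 was not called with both arrays that stand apart left out (adjusted p = 0.155).

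PMEPCRF, a pectin methylesterase (0.44 ± 0.08, adjusted p = 0.0138), was not called without OGs replicate 2, OGs replicate 3, chitin replicate 1 or chitin replicate 2 (adjusted p = 0.0579 to 0.0859). AT3G10720, named outside the rule (-0.80 ± 0.17, adjusted p = 0.0284), was not called without OGs replicate 2, OGs replicate 3, chitin replicate 2 or chitin replicate 3 (0.0907 to 0.145). Without both arrays that stand apart, 1 pectin gene was higher and 1 lower. Among 25 measured xyloglucan enzymes and expansins, EXPB3, a beta-expansin, was the 1 called (4% higher, against 1.22% of all genes). It differed by 0.53 ± 0.10 (adjusted p = 0.0140). That call was lost without OGs replicate 2, chitin replicate 1 or chitin replicate 2 (0.0604 to 0.0790). None of 21 sugar carriers and invertases was called by limma (2 at an unadjusted p under 0.05), and their differences ran from -0.18 to 0.39. Of the 21, 12 had means below log2 5 in both groups, close to background.

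Auxin genes are of interest because OGs are known to oppose auxin responses. Of 12 measured of 45 listed, 2 (16.7%) were higher after OGs, against 1.22% of all genes, and 0 lower, with a median of 0.04. Means were below log2 5 in both groups for 5 of the 12. GH3.3, an enzyme that joins auxin to amino acids, had 8.33, 7.79 and 7.53 after OGs, against 7.28, 7.08 and 6.52 after chitin (0.92 ± 0.12, adjusted p = 0.00146). It was above the control after OGs (1.23, adjusted p = 0.000802), and chitin minus control was 0.31 (adjusted p = 0.147). GH3.1, of the same family, was higher by 0.43 ± 0.10 (adjusted p = 0.0391), but was not called with any of the 6 arrays left out (adjusted p = 0.0501 to 0.160). The family members WES1 (0.68, adjusted p = 0.0776) and GH3.17 (0.49, adjusted p = 0.148) did not pass, nor did IAA18, IAA20, IAA29, IAA30, LBD16, LBD29 or PUCHI, whose differences ran from -0.19 to 0.06.

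Of the other hormone genes, PDF1.2 (-0.20, adjusted p = 0.671) and PDF1.2b (-0.07, adjusted p = 0.896), defensins of the jasmonate and ethylene response, did not pass. AT1G12010, a relative of the enzyme that makes ethylene, did not pass either (-0.14, adjusted p = 0.717). Of 2 measured salicylate genes, WRKY53 was lower, and GRX480, a glutaredoxin, did not pass (-0.50, adjusted p = 0.0614).

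Of 33 listed nutrient transport genes 3 were measured, and all 3 were higher after OGs than after chitin, against 1.22% of all genes. By their means all 3 lay below the control in both groups. AT2G26690, of the nitrate transporter family, had 6.88, 7.31 and 7.34 after OGs, against 5.87, 5.18 and 6.47 after chitin and 7.75 to 8.29 on the control arrays (1.33 ± 0.26, adjusted p = 0.0181). AT3G58060, a manganese carrier, differed by 0.91 ± 0.18 (adjusted p = 0.0183). AT5G38820, annotated as an amino acid carrier rather than a mineral one, differed by 0.85 ± 0.18 (adjusted p = 0.0246). None of these calls was stable. For AT2G26690 and AT5G38820 the call was lost without OGs replicate 2, OGs replicate 3, chitin replicate 1 or chitin replicate 2 (adjusted p = 0.0504 to 0.102 and 0.0747 to 0.124), and for AT3G58060 without OGs replicate 2 or any 1 chitin array (0.0518 to 0.0889).

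Markers of other cells were read beside these results. Of 11 measured nuclear photosynthesis genes, which mark green shoot tissue, 1 (9.09%) was called higher, against 1.22% of all genes. It was NdhS, a subunit of the chloroplast NDH complex (0.75 ± 0.12, adjusted p = 0.00704). NdhS was not called without both arrays that stand apart (adjusted p = 0.140, limma), with values under log2 5 raised to 5 (0.0663) or with no replicate block (0.0504). All 11 had positive differences, with a median of 0.50. Their mean level was 7.78, 6.97 and 7.26 on the OGs arrays, 7.22, 6.19 and 7.07 on the chitin arrays and 8.14 to 8.87 on the control arrays, so the elicitor groups overlapped. Of 69 plastid-encoded genes 0 were called by limma (3 at an unadjusted p under 0.05), with a median of 0.04. Of 7 nuclear photosynthesis genes found by symbol 0 were called (4 at an unadjusted p under 0.05), with a median of 0.50. This list overlapped the 11 above, with the same lowest (0.20) and highest (0.91) difference, so it is not a separate result. Of 6 measured root hair genes 1 (16.7%) was called higher, against 1.22% of all genes. It was AT3G07070, a protein kinase (0.76 ± 0.13, adjusted p = 0.0100, but 0.0521 without OGs replicate 2). AT3G07070 was not called without both arrays that stand apart (adjusted p = 0.0893, limma) or with values under log2 5 raised to 5 (0.0839). EXPA7 and EXPA18, expansins of root hairs, differed by 0.02 and -0.05, and of 3 genes of dividing cells 0 were called (1 at an unadjusted p under 0.05). The part of these cell types in the genes higher after OGs was not tested.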

How the data were processed

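The deposited values were log2 intensities per probe set for 12 arrays. Per the labels' design text they were analysed with GCRMA; the submitters' processing notes name Affymetrix Expression Console. Neither source says which made the table. Such scaling compresses differences among dim probe sets and assumes that most transcripts do not change. A second time point in the design text was not used here.

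Of 22810 probe sets, 64 control probe sets were left out and 22746 tested with no brightness filter. The platform annotation gave 1 gene to 13513, several to 503 and none to 8730, and 13436 of the first matched the TAIR10.1 gene table. The probe set with the highest mean stood for a gene. No gene had probe sets called in opposite directions. Many list members lacked a probe set with 1 gene, and WRKY30, named in the design text, was not analysed here.

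One linear model (R 4.3.3, limma 3.58.1, lmFit and eBayes) covered all 12 arrays, with a term for each of the 4 groups and a block for replicate number (6 residual degrees of freedom), because the design text takes ratios within sample pairs. Benjamini-Hochberg adjustment ran over all probe sets tested, with calls at 0.05. P-values measure the spread between labelled biological replicates. The fit was tested on simulated data. If the dimmer group's mean was under log2 5, each of its arrays below 5 was set to 5 and the size given as at least that fold.

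The genes named were the 15 largest differences each way (called, alike in all 3 pairs, at log2 5 or more in the higher group), at most 4 called genes per list by adjusted p, and every OG or cellodextrin oxidase. Other called genes are marked as chosen after their values were seen. List members that were not called were also named, and the rule did not cover these. The comparison, lists and rules were chosen with earlier results of these data known. Alternatives were no block, 6 arrays only, quantile normalization, median centring, a filter, a floor at log2 5, an intensity trend, array weights and arrays left out. The number of arrays limits the precision.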

Additional observations from a re-analysis of the deposited data

How the results depend on the processing

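The 813 probe sets called were 646 to 982 with no block, 6 arrays only, quantile normalization, median centring, the filter, an intensity trend or array weights. With values under log2 5 raised to 5, 323 were called, 74 higher and 249 lower, and 23 listed genes against 50. Calls were also lost by genes with no array under log2 5 and an unchanged difference, such as AT1G62770, BGLU45 and AT4G36430. Raising changed no value of those genes. Their adjusted p also draws on the spread and the p-values of all other probe sets, many of which the raising changed. The part of each was not tested. Leaving out 1 array gave 456 to 834 called, 94 to 373 higher and 353 to 461 lower. The lowest counts came without chitin replicate 2 (456) or OGs replicate 3 (485). Without both, 262 were called, 31 higher and 231 lower, and 27 listed genes. The share of calls that were lower was 60.3%, against 67.9% after median centring, 77.1% with values raised to 5 and 88.2% without both arrays. No named gene that was called in the main fit reversed its direction in any alternative run in which it was tested. With 6 arrays only, the calls of GH3.1, PMEPCRF, AT5G38820, AT5G47950, AT5G47980, AT5G15180, AT3G10720 and BZIP60 were lost.

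The design text pairs samples, so the replicate number is a block in the model. Same-numbered OGs and chitin arrays deviated together only weakly (correlations of 0.252, 0.123 and 0.0665), and not every array correlated best with its own number, so the samples may share only a number. With no replicate block 961 probe sets were called, 764 of them among the 813. The calls of GH3.1 (adjusted p = 0.0515), AT3G47380 (0.0642), NdhS (0.0504) and AT1G34510 (0.0571) were then lost.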

Other observations

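Several further genes, chosen after their values were seen, were lower after OGs with each array left out in turn. MMP, a matrix metalloproteinase, had 6.83, 6.81 and 6.73 after OGs, against 7.88, 8.15 and 7.84 after chitin (-1.17 ± 0.11, adjusted p = 0.000178, limma). AT1G74360, known as NILR1, a receptor-like kinase of the response to nematodes, had 6.18, 5.94 and 5.64 after OGs, against 6.96, 7.18 and 6.66 after chitin (-1.01 ± 0.13, adjusted p = 0.00127). CML42, a calmodulin-like protein, differed by -0.81 ± 0.12 (adjusted p = 0.00411), and BZIP60, a transcription factor of the unfolded protein response, by -0.47 ± 0.08 (adjusted p = 0.00753). GH9B8, of glycosyl hydrolase family 9, was higher after OGs, at 7.99, 7.91 and 7.98 against 7.62, 7.18 and 7.31 after chitin (0.59 ± 0.09, adjusted p = 0.00395). With both arrays that stand apart left out, CML42 and GH9B8 were no longer called. BZIP60 was not called with only the 6 OGs and chitin arrays in the fit.

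Acyltransferase genes beside those of thalianol synthesis, a root triterpene, were also chosen after their values were seen. They were higher after OGs than after chitin in the full fit. AT5G47980 differed by 0.94 ± 0.17 (adjusted p = 0.0134) and AT5G47950 by 0.99 ± 0.21 (adjusted p = 0.0234). For AT5G47980 OGs minus control was 0.47 (adjusted p = 0.204, limma) and chitin minus control -0.47 (0.126). For AT5G47950 OGs minus control was 0.06 (adjusted p = 0.932) and chitin minus control -0.94 (0.0138). AT5G47980 was not called without OGs replicate 1 (0.0678) or OGs replicate 2 (0.0775), and AT5G47950 only held without chitin replicate 3 (otherwise 0.0506 to 0.123).

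Of the 813 probe sets called, 387 had no single gene in the annotation used. Among those with no gene at all, 245038_at had 6.90, 5.46 and 6.59 after OGs, against 10.59, 11.05 and 10.40 after chitin (-4.36 ± 0.32, adjusted p = 3.74e-05). Probe set 262177_at had 7.89, 8.16 and 7.49 after OGs, against 5.5, 5.98 and 6.01 after chitin (2.02 ± 0.15, adjusted p = 4.45e-05).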
